A study of Mus musculus with 4 samples.

Results

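The genes described here encode 10 peptide hormones of the enteroendocrine cells of the gut: Gip, Sct, Gcg, Pyy, Cck, Nts, Ghrl, Sst, Tac1 and Insl5. They were chosen by name, and each of the 10 was matched by its Ensembl identifier among the 55487 genes of the deposited tables. RNA was sequenced from crypt cells sorted out of untreated mice of 6 to 12 weeks, all of genotype Lgr5-EGFP-IRES-creERT2, which carry a green fluorescent reporter and a tamoxifen-inducible Cre driven from the Lgr5 locus. The SISC group, stem cells of the small intestine, was gated on the reporter and on absence of CD24; for the LISC group, stem cells of the large intestine from cecum to rectum, only the reporter is named. Both groups held 2 libraries, and no label ties a replicate to an animal of its own, so a p-value here reflects the spread between libraries, which may be technical. Because the gate as named differs between the groups, any effect of the gate and that of the intestine cannot be told apart. Wherever a pair of values is given for a group, replicate 1 stands first and replicate 2 second.

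Enteroendocrine cells are scattered secretory cells that arise from the Lgr5-positive stem cells through progenitors marked by the factor Neurog3. They make peptides as longer precursors, cut them in secretory granules and release them in answer to food, bile acids and microbial products. Hormones are zoned along the gut: Gip, Cck and Sct are textbook hormones of the upper small intestine, Ghrl of the stomach with fewer cells in the upper small intestine, Nts of the ileum, and Gcg, Pyy and Insl5 of the ileum and colon. CD24 is known as a surface protein of Paneth and enteroendocrine cells as well as of crypt cells.

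Totals of the expected counts (reads per gene as estimated by RSEM) ran from 12795434 to 27227715 per library. Nuclear rRNA took 24.1% and 28.5% of counts in the replicate 1 libraries of SISC and LISC and under 0.1% in both replicate 2 libraries, so that values within a replicate number, which compare single libraries with no test, are given beside the pooled ones. The sorted cells held Lgr5 mRNA in all 4 libraries, at 18.2 to 48.8 TPM, and Cd24a mRNA at 129 to 392 TPM with overlapping groups (log2 difference 0.15 ± 0.39 SE, edgeR adjusted p = 0.994). TPM, each gene's share of all transcripts corrected for gene length, is used here to compare genes. CPM, its share of all counts with TMM library factors and no length correction, is used to compare libraries. Hormone reads were few: the 10 genes together had 775 and 454 counts in SISC, and 452 and 2269 in LISC.

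The 2 groups differed in which hormones were read. Gip was present in both SISC libraries and had no count in LISC, while Sct was 23.8-fold higher in LISC and was its most abundant hormone mRNA. These 2 genes passed edgeR's quasi-likelihood test at an adjusted p below 0.05, 1 in each direction, out of 9 hormone genes that passed the filter on low counts. The same test called 2.2% of all 14165 genes tested (1.45% higher in LISC and 0.741% higher in SISC). Cck and Ghrl lay lower in LISC, and Pyy and Insl5 higher, without passing. Nts did not pass the count filter and was not tested.

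**Figure D1:**
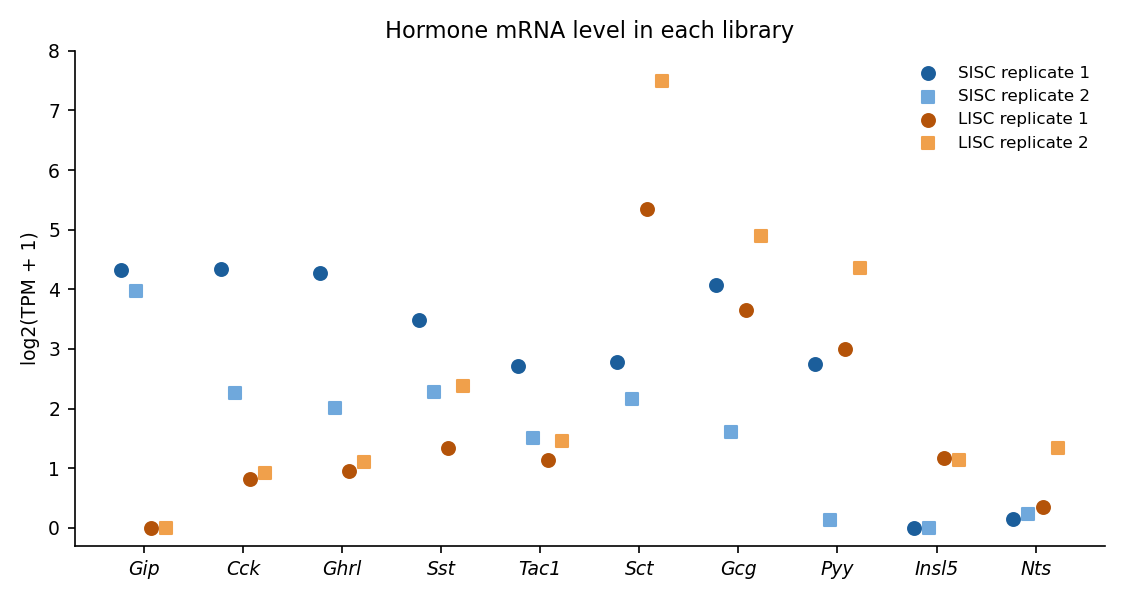
The vertical axis gives log2(TPM + 1) of each hormone gene, and each point is 1 library (circles for replicate 1, squares for replicate 2, blue for SISC, orange for LISC). Gip is listed at 0 in both LISC libraries and Insl5 in both SISC libraries, and Sct reaches 39.5 and 179 TPM in LISC.

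Gip encodes the incretin made by K cells of the duodenum and jejunum, which raises insulin release after a meal. The gene (ENSMUSG00000014351) lies on the plus strand of chromosome 11, from 96024545 to 96030831 in GRCm38. It had 131 and 188 counts in SISC, or 9.53 and 5.87 CPM, and 0 counts in both LISC libraries. The SISC libraries lay within 1.62-fold of each other and the groups did not overlap. At these depths a count of 0 allows up to 3 counts, or 0.278 and 0.103 CPM in LISC. Gip was therefore at least 40.4-fold higher in SISC (floor of 3 counts per LISC library; edgeR adjusted p = 0.0403), and against the same floor its log2 difference was −5.10 or lower within replicate 1 and −5.83 or lower within replicate 2. Gip was also called in the 11 other fits that were run. In the 4 of these that leave out 1 library, a group has a single library, whose spread is assumed to be like that of the other group, as in all such fits given here.

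Of the 9 hormone genes read in SISC, Gip had the smallest ratio of TPM between the 2 libraries, at 19.1 and 14.8 TPM. Its upstream sequence is shown because Gip and Sct are the 2 called hormones and move in opposite directions. The stretches are the 250 bases before the RefSeq transcription start (GRCm38.p6), which for both genes coincides with the GENCODE start. Capitals mark AGATAA or TGATAA on either strand in Gip, the core of sites bound by GATA factors, and GGGCGG on either strand in Sct, the GC box.
Gip, chr11:96024295-96024544, plus strand: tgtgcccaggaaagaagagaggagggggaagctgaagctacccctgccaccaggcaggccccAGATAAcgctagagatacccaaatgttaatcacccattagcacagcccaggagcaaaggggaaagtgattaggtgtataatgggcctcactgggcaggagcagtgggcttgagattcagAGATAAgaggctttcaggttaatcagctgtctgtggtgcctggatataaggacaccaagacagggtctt
Sct, chr7:141279134-141279383, minus strand: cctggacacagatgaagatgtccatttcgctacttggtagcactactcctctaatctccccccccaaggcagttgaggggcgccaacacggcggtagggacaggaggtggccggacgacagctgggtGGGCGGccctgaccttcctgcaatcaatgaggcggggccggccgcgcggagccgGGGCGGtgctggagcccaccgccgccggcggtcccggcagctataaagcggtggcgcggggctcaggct

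The Gip stretch held AGATAA at 188 and 69 bases before the start (positions −188 and −69, first base of the match) and no GGGCGG. At least 2 matches to AGATAA or TGATAA stood in 2.72% of the 32851 RefSeq promoter stretches of this length, and at least 1 in 16.6%. The Sct stretch held GGGCGG at −123 and −69, TATAAA at −28 and neither AGATAA nor TGATAA. At least 2 GGGCGG matches were in 16.7% of all stretches. Of the 10 hormone genes, 5 had AGATAA or TGATAA in the stretch nearest to the GENCODE start, and Insl5, the other gene with 0 counts in 1 group, had 3 matches. These matches are letters in a window and were not measured as bound sites.

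Sct encodes secretin, the peptide of S cells that drives bicarbonate secretion. The gene (ENSMUSG00000038580) lies on the minus strand of chromosome 7, from 141278330 to 141279133. Its counts were 24 and 33 in SISC and 196 and 1394 in LISC. On the CPM scale these were 1.75 and 1.03 in SISC and 18.2 and 47.9 in LISC. Both LISC libraries were above both SISC libraries, and LISC replicate 2 was 2.64-fold above LISC replicate 1. The log2 difference was 4.61 ± 0.64 (SE, edgeR adjusted p = 0.0447), and 3.38 and 5.54 within replicates 1 and 2. The call was lost without SISC replicate 2 (log2 4.21, edgeR adjusted p = 0.0694) and when rRNA and mitochondrial genes were left out of the table (log2 4.60, edgeR adjusted p = 0.051). Without LISC replicate 2 the difference was smaller, at 3.74, and still called.

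Goblet and tuft cell marker sums had the same order over the 4 libraries as Sct, lowest in SISC replicate 2 and highest in LISC replicate 2. The order in TPM was not particular to Sct: Pyy shared it, and Gcg had the same lowest and highest library. The summed TPM of 7 goblet markers was 1263 and 553 in SISC and 1583 and 5619 in LISC. That of 6 tuft markers was 4.53 and 1.93 in SISC and 15.8 and 42.6 in LISC. All 7 goblet and all 5 tested tuft markers had a higher point estimate in LISC, and 0 of them were called by edgeR. An unadjusted p below 0.05 was reached by 2 goblet and 4 tuft genes, against 13.4% of all genes tested. The median log2 difference within replicates 1 and 2 was 0.26 and 3.80 for goblet and 1.95 and 5.37 for tuft markers. Within replicate 1 Zg16, Clca1 and Tff3 were lower in LISC (log2 −2.74, −1.29 and −0.07) and the other goblet markers higher. The defining goblet gene Muc2 was read at 171 and 10.1 TPM in SISC and 388 and 806 TPM in LISC. Their part in the Sct result was not tested.

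Cck and Ghrl were the other hormones of the stomach and upper gut. Cck, on chromosome 9 (ENSMUSG00000032532; minus strand, 121489824 to 121495694), encodes cholecystokinin, which contracts the gallbladder and slows eating. Its counts were 147 and 51 in SISC and 6 and 8 in LISC. In CPM these were 10.7 and 1.59 against 0.556 and 0.275. The groups did not overlap, but SISC replicate 1 was 6.71-fold above SISC replicate 2. The log2 difference of −3.93 ± 1.15 (SE) did not pass (edgeR adjusted p = 0.213). It was −4.27 and −2.53 within replicates 1 and 2. Without SISC replicate 2 Cck was called (log2 −4.77, edgeR adjusted p = 0.0411), and DESeq2 called it with all libraries (log2 −3.97, adjusted p = 0.0035).

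Ghrl encodes ghrelin, the acylated peptide that stimulates appetite and growth hormone release. It lies on chromosome 6 (ENSMUSG00000064177; minus strand, 113716119 to 113719880). The antisense gene Gm26982 and the unclassified gene Gm44033, both on the plus strand, share exonic bases with it. Ghrl had 76 and 28 counts in SISC and 4 and 9 in LISC, or 5.53 and 0.875 CPM against 0.371 and 0.309 CPM. The groups did not overlap, and again SISC replicate 1 stood 6.32-fold above SISC replicate 2. The log2 difference was −3.22 ± 1.10 (SE, edgeR adjusted p = 0.298), and −3.90 and −1.5 within replicates 1 and 2. Gm26982 had 26 to 55 counts in all 4 libraries. The sources used here do not state whether counting used strand, but the deposited spread of the count was 0 in every library for Ghrl, Gm26982 and Gm44033, so none of their reads was divided with another gene.

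Gcg, Pyy and Insl5 are the hormones of L cells, the type that dominates the ileum and colon. Gcg encodes proglucagon, which intestinal cells cut into glucagon-like peptides. It lies on chromosome 2 (ENSMUSG00000000394; minus strand, 62474530 to 62483650). Its CPM was 16.7 and 1.53 in SISC and 15.9 and 19.97 in LISC, from 230, 49, 171 and 581 counts. SISC replicate 1 was as high as the LISC libraries and SISC replicate 2 was low, so the groups overlapped. The log2 difference was 1.0 ± 1.03 (SE, edgeR adjusted p = 0.902), and −0.08 and 3.71 within replicates 1 and 2. Without SISC replicate 1 Gcg was called higher in LISC (log2 3.54, edgeR adjusted p = 0.0146).

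Pyy encodes peptide YY, a satiety peptide usually made in the same cells as Gcg. It lies on chromosome 11 (ENSMUSG00000017311; minus strand, 102106676 to 102107832). Its counts were 15 and 1 in SISC and 32 and 139 in LISC. In CPM these were 1.09 and 0.0312 against 2.97 and 4.78. The groups did not overlap, yet the 2 SISC libraries differed 34.9-fold, with only 1 count (exact 95% Poisson interval 0.0253 to 5.57, for counting error only) in SISC replicate 2. The log2 difference was 2.90 ± 1.42 (SE, edgeR adjusted p = 0.53), and 1.44 and 7.26 within replicates 1 and 2. Without SISC replicate 1 Pyy was called (log2 6.73, edgeR adjusted p = 0.0358).

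Insl5, an insulin-like peptide of colonic L cells, was read at a low level and in LISC only. It lies on chromosome 4 (ENSMUSG00000066090; minus strand, 103017872 to 103026842). It had 10 and 14 counts in LISC (exact 95% Poisson intervals 4.80 to 18.4 and 7.65 to 23.5) and 0 counts in both SISC libraries. The groups did not overlap, and the level in LISC was at least 4.51-fold higher against the floor of 3 counts per SISC library. The test was not passed (edgeR adjusted p = 0.172). Within replicates 1 and 2 the log2 difference was at least 2.09 and 2.36.

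Sst, Tac1 and Nts are made by cells found along the whole intestine or in its distal small part. Sst, on chromosome 16 (ENSMUSG00000004366; minus strand, 23889573 to 23890958), encodes somatostatin, the inhibitor of other hormone cells made by D cells. Its CPM was 6.11 and 1.78 in SISC and 1.205 and 1.79 in LISC. SISC replicate 1 stood apart from 3 libraries at like levels. The log2 difference was −1.37 ± 0.77 (SE, edgeR adjusted p = 0.626), and −2.34 and 0.01 within replicates 1 and 2.

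Tac1 encodes the precursor of substance P, a peptide of enterochromaffin cells as well as of enteric neurons. On chromosome 6 (ENSMUSG00000061762; plus strand, 7554879 to 7565834), it stood at 4.80 and 1.31 CPM for SISC, and for LISC at 1.39 and 1.203 CPM. The pattern was that of Sst, with SISC replicate 1 alone above the others. The log2 difference was −1.23 ± 0.80 (SE, edgeR adjusted p = 0.716), and −1.79 and −0.13 within replicates 1 and 2. Nts, on chromosome 10 (ENSMUSG00000019890; minus strand, 102481756 to 102490486), encodes neurotensin. It had 2 and 5 counts in SISC and 5 and 37 in LISC, and in CPM the LISC libraries, at 0.463 and 1.27, were above the SISC libraries, at 0.146 and 0.156. All but LISC replicate 2 were near the floor of 3 counts.

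**Figure D2:**
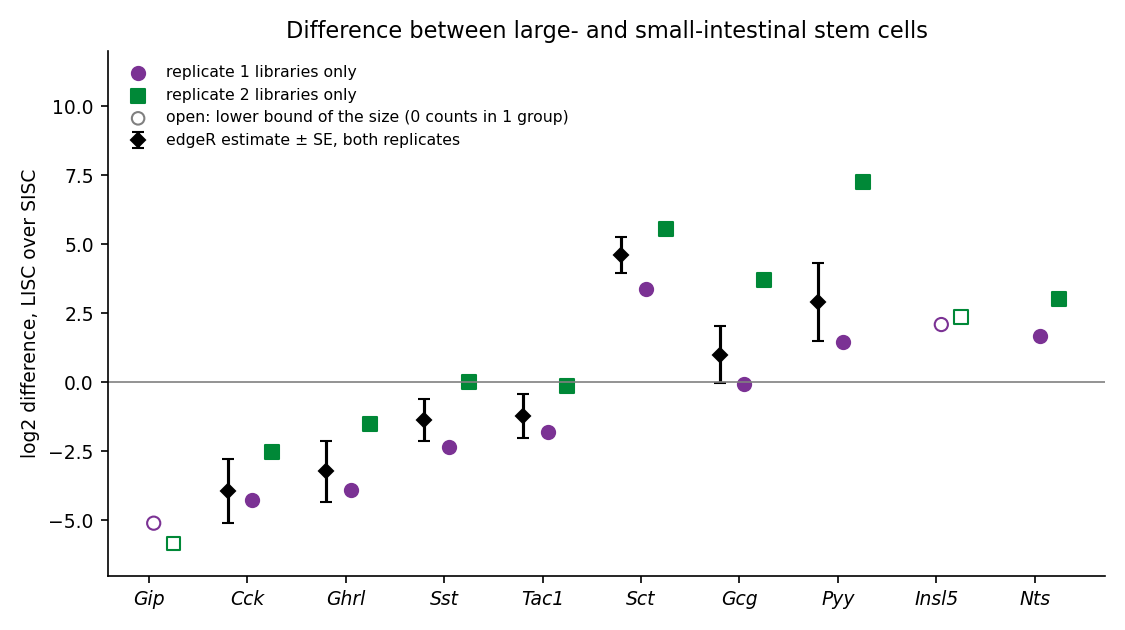
The vertical axis gives the log2 difference of LISC over SISC on the CPM scale. Diamonds are edgeR estimates with their SE over all 4 libraries (not drawn for Gip and Insl5, which have 0 counts in 1 group, or for the untested Nts), circles are the replicate 1 libraries only and squares the replicate 2 libraries only. Open symbols are lower bounds of the size against 3 counts. Only for Gip does the replicate 2 symbol lie below that of replicate 1.

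Across the 9 tested hormone genes, 4 had a higher point estimate in LISC and 5 in SISC, and the median log2 difference was −1.23, against −0.02 over all genes tested. The median was −1.79 within replicate 1 and 0.01 within replicate 2, and over the same 9 genes it was −0.03 without SISC replicate 1. The other call rules gave more or fewer hormone genes, beside their own shares of all genes. DESeq2 called 1 hormone gene with the higher level in LISC and 2 with it in SISC. Its shares were 4.94% and 2.47% of the 15772 genes given an adjusted p. Numbers fitted by DESeq2, as given for the lists below, can include genes without an adjusted p. Without a filter on low counts edgeR called 3 and 3, against 3.92% and 1.94%. With limma-trend on TPM the numbers were 2 and 3, against 2.08% and 1.22%, and with a replicate block 1 and 2, against 7.17% and 3.7%. DESeq2 size factors (RLE) in edgeR gave 1 and 1, against 1.27% and 0.657%, and a stricter filter 1 and 1, against 1.73% and 0.848%. Leaving rRNA and mitochondrial genes out gave 0 and 1, against 1.13% and 0.545%. Gip was called under each of these rules.

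An unadjusted p below 0.05 was reached by 5 of the 9, against 13.4% of all genes tested. In 6 of the 9 the groups did not overlap, against 40.3% of all genes tested (21.9% higher and 18.4% lower in LISC). Of these hormone genes 3 were higher in LISC and 3 in SISC. Among them Gip, Cck, Ghrl, Pyy and Insl5 passed the count filter only through the group where they were high. Their separation is thus partly set by the filter, and no conclusion is drawn from this number. Of the 7 that were not called, Insl5 had the lowest edgeR adjusted p, 0.172.

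The order of the hormones within each group was compared in TPM. In SISC the mean was 16.9 ± 3.06 TPM for Gip (SD, n = 2, as for the values that follow), 11.5 ± 10.9 for Cck, 10.7 ± 10.9 for Ghrl, 8.93 ± 9.72 for Gcg and 7.03 ± 4.47 for Sst. Below these stood Sct at 4.69 ± 1.71, Tac1 at 3.71 ± 2.66, Pyy at 2.89 ± 3.95 and Nts at 0.14 ± 0.0424 TPM. Every pair of neighbours from Gip to Nts overlapped when values were compared across libraries. Within each SISC library, though, Cck lay above Ghrl, Ghrl above Gcg, Sst above Sct and Sct above Tac1. The other neighbours changed order between the SISC libraries, and no order was tested. Farther apart, both Gip values lay above both values of Sst, Sct, Tac1, Pyy and Nts. In LISC the order ran from Sct at 109 ± 98.3 to Gcg at 20.2 ± 12.3, Pyy at 13.2 ± 8.76, Sst at 2.87 ± 1.88, Tac1 at 1.47 ± 0.382 and Insl5 at 1.22 ± 0.0424 TPM. Ghrl, Nts and Cck followed at 1.045 ± 0.163, 0.90 ± 0.877 and 0.83 ± 0.099 TPM. There Sct lay above Gcg, Pyy above Sst and Insl5 above Ghrl without overlap, the last on 4 to 14 counts. The other neighbours with counts overlapped across libraries, but within each LISC library Gcg lay above Pyy and Sst above Tac1.

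Summed over the 10 genes, hormone mRNA came to 99.98 and 33.1 TPM in SISC and to 64.0 and 237 TPM in LISC. The groups overlapped (exact two-sided permutation test p = 0.67, where 4 libraries allow no p below 0.33). The make-up of the sum was given by each gene's share of it. Gip held 19.1% and 44.6% of the sum in the SISC libraries, and Gip, Cck and Ghrl were the leading 3 by mean level there. Sct held 5.90% and 10.5% of the sum in SISC but 61.7% and 75.2% in LISC. Gcg held 15.8% and 6.20% in SISC and 18.0% and 12.2% in LISC. Without Sct the sum was 94.1 and 29.6 TPM in SISC and 24.5 and 59.0 TPM in LISC.

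**Figure D3:**
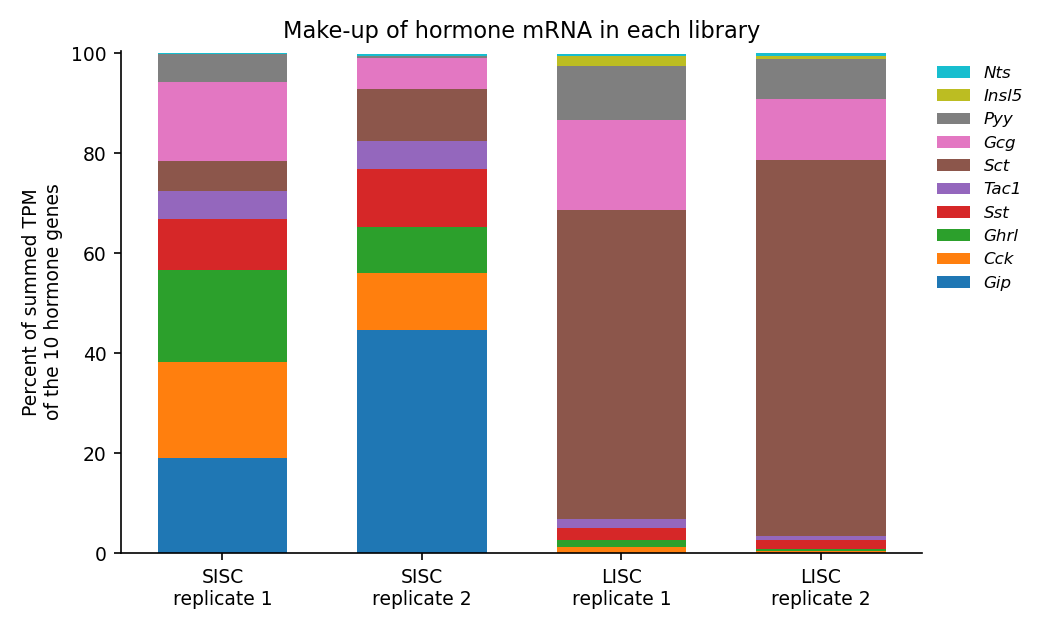
Each bar is 1 library, and its coloured parts give each hormone gene's percentage of the summed TPM of the 10 genes. Sct fills 61.7% and 75.2% of the LISC bars, and Gip 19.1% and 44.6% of the SISC bars.

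TPM of these short transcripts also depends on RSEM's effective length, the gene's estimated length less a part set by the library's fragments, and both can differ between libraries. For Pyy the estimated length was 429 bases in SISC replicate 1 and 555 in SISC replicate 2, and the effective length 131 and 375 bases. For Sct the estimated length was 511 and 528 bases and the effective length 202 and 348. For Pyy SISC replicate 1 was 56.8-fold above SISC replicate 2 in TPM and 34.9-fold in CPM, where length plays no part.

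The 2 SISC libraries differed by more for some hormones than for others. In CPM, SISC replicate 1 was above SISC replicate 2 by 10.9-fold for Gcg, 6.71-fold for Cck, 6.32-fold for Ghrl, 3.66-fold for Tac1 and 3.43-fold for Sst, but only by 1.62-fold for Gip and 1.69-fold for Sct. The granins Chga and Chgb, proteins of the hormone granule used as general enteroendocrine markers, went the same way. Chga was read at 15.9 and 3.54 TPM and Chgb at 28.8 and 8.63 TPM in SISC. In LISC replicates 1 and 2 Chga was at 4.12 and 7.81 TPM and Chgb at 7.23 and 14.5 TPM. In such bulk samples fewer cells of a type and less RNA per cell cannot be told apart.

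Levels were therefore also taken per granin TPM, each hormone's TPM divided by the sum of Chga and Chgb in the same library, a scaling chosen after the values were seen. Sct was at 0.132 and 0.286 per granin TPM in SISC and at 3.48 and 8 in LISC. On this scale its log2 difference was 4.72 within replicate 1 and 4.81 within replicate 2. For Cck these were −2.69 and −2.96, for Ghrl −2.33 and −2.25, and for Sst −0.75 and −0.76. For these 4 genes the gap between the replicate numbers was smaller than in CPM. It was smaller too for Gcg, at 1.52 and 2.94, Tac1, at −0.24 and −0.95, Nts, at 3.32 and 2.29, and Pyy, which kept a wide gap at 2.28 and 6.72. Gip stood at 0.427 and 1.21 per granin TPM in SISC, farther apart than its 19.1 and 14.8 TPM. Insl5 too moved apart on this scale, at 0.11 and 0.0533 in LISC beside 1.25 and 1.19 TPM. These ratios carry no test.

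Markers of other cells moved with the difference between the SISC libraries too. The summed TPM of 9 Paneth cell genes was 22104 and 4655 in SISC and 85.1 and 72.2 in LISC. All 9 were lower in LISC, and edgeR called 2, where 0.741% of all genes tested were called higher in SISC. The list of 8 enteroendocrine markers summed to 51.9 and 16.4 TPM in SISC and 16.7 and 32.0 TPM in LISC, with overlapping groups. Stem cell genes went the other way within SISC, at 2635 and 6672 TPM. The part of these other cells in the hormone levels was not tested.

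Sst, Tac1, Nts and Cck are also genes of enteric neurons, and Ghrl, Sst and Gcg of stomach or pancreas. The 13 neuron and glia markers summed to 0.58 to 2.30 TPM per library, and Nos1, Sox10 and S100b were at 0 in every library. Of 17 stomach and pancreas genes 8 were at 0 in all libraries, among them Ins1, Ins2, Gkn1 and Atp4b, and gastrin (Gast) had 1 count in total. Pgc, which encodes the stomach enzyme precursor pepsinogen C, was called higher in SISC (edgeR adjusted p = 0.0218), at 4.80 and 12.5 TPM in SISC and 0.05 and 0.07 TPM in LISC. The 8 immune markers summed to 0.59 to 2.73 TPM.

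**Figure D4:**
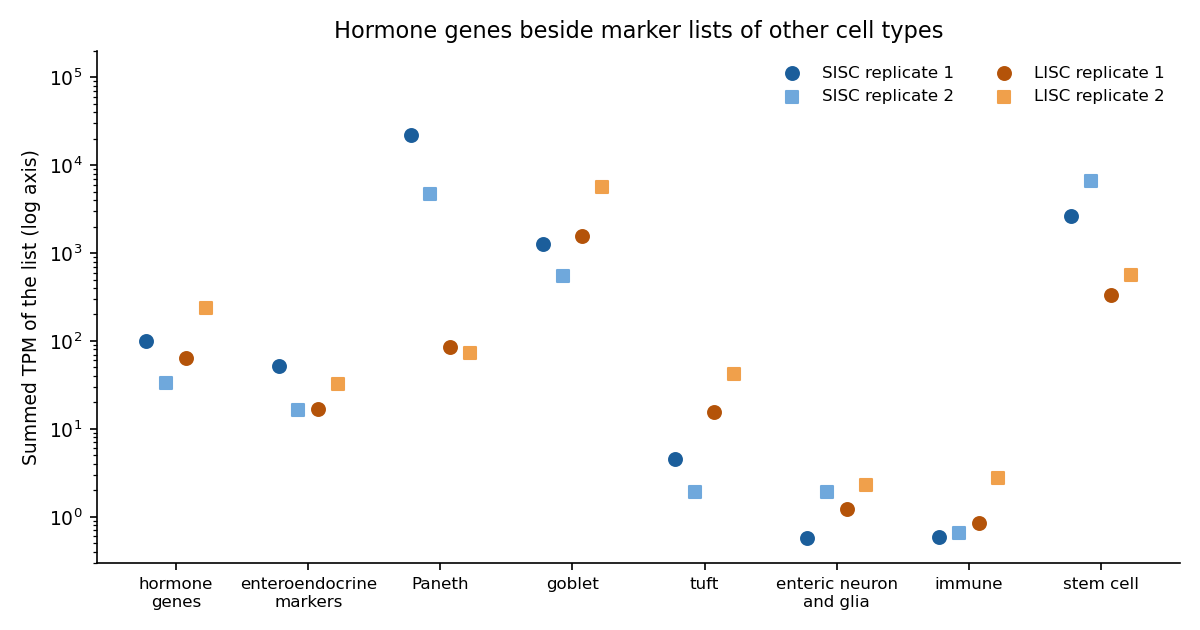
The vertical log axis gives the summed TPM of the 10 hormone genes and of 7 marker lists in each library (circles for replicate 1, squares for replicate 2, blue for SISC, orange for LISC). The hormone and enteroendocrine sums overlap between the groups, the Paneth sums are 4655 or more in SISC and at most 85.1 in LISC, and the neuron, glia and immune sums stay at or below 2.73.

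Transcription factors of the enteroendocrine lineage were read in both groups, some on few counts, except Onecut3 and Nkx6-3, which had 0 counts in LISC. Of 29 factor genes, 17 were tested and edgeR called 0, with 4 at an unadjusted p below 0.05 (13.4% of all genes tested). DESeq2, which fitted all 29, called 2 higher in LISC and 1 in SISC, against 4.94% and 2.47% of all genes with an adjusted p. The median difference was −0.14 on the log2 scale, −0.31 within replicate 1 and 0.69 within replicate 2. Neurog3, the factor that commits progenitors to this lineage, was at 2.89 and 1.94 TPM in SISC and at 2.14 and 3.39 TPM in LISC, with a log2 difference of 0.08 ± 0.58 (SE, edgeR adjusted p = 1). Sox4 and Foxa1 were the most abundant of the list, with log2 differences of −0.14 ± 0.47 and 1.27 ± 0.24 (SE, edgeR adjusted p = 0.999 and 0.0847). Pdx1, the duodenal and pancreatic factor, was at 2.61 and 3.59 TPM in SISC and at 0 and 0.09 TPM in LISC (edgeR adjusted p = 0.0546). Atoh1, the factor of all secretory cells, was at 2.47 and 1.5 TPM in SISC and 11.0 and 38.8 TPM in LISC (edgeR adjusted p = 0.0749).

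Genes of the secretory granule and its release machinery gave 0 calls among the 22 tested of 30, with 3 of the 22 at an unadjusted p below 0.05 by edgeR, a share near the 13.4% of all genes tested. DESeq2, which fitted all 30, called 1 higher in LISC, against 4.94% of all genes with an adjusted p. The median difference was 0.17 on the log2 scale, −0.25 within replicate 1 and 0.75 within replicate 2. The most abundant were Rab3d, a small GTPase of secretory vesicles, and Vamp2, a vesicle fusion protein, with log2 differences of 1.27 ± 0.34 and 0.25 ± 0.26 (SE, edgeR adjusted p = 0.184 and 0.904). Chga and Chgb had log2 differences of −0.94 ± 0.88 and −1.05 ± 0.78 (SE, edgeR adjusted p = 0.87 and 0.78).

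Of 17 genes that cut, modify or degrade peptide hormones, 12 were tested and 2 were called, both higher in SISC, where 0.741% of all genes tested were called. Mme encodes neprilysin, a surface protease that degrades peptide hormones. It was at 2.11 and 6.74 TPM in SISC and at 0.03 and 0.01 TPM in LISC (log2 difference −7.21 ± 0.77 SE, edgeR adjusted p = 0.0269). Pcsk5, a proprotein convertase, was at 6.00 and 6.52 TPM in SISC and 0.73 and 1.08 TPM in LISC (log2 −2.75 ± 0.33 SE, edgeR adjusted p = 0.0331). Without LISC replicate 2 the call of Pcsk5 was lost (log2 −2.54, edgeR adjusted p = 0.0796), and Mme was at −6.08 without LISC replicate 2 and −8.44 without LISC replicate 1. The most abundant of the list, the cysteine protease gene Ctsl and the incretin-degrading peptidase gene Dpp4, had log2 differences of 0.96 ± 0.23 and −0.46 ± 0.28 (SE, edgeR adjusted p = 0.136 and 0.68).

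The convertase genes were uneven. Pcsk1, which cuts proglucagon into its intestinal products, was at 1.16 and 1.56 TPM in SISC and 2.29 and 5.40 TPM in LISC (edgeR adjusted p = 0.0903), and Pcsk2, which gives pancreatic glucagon, was at 0 in all 4 libraries. Pam, the enzyme that amidates secretin, cholecystokinin and peptide YY at their ends, was at 2.63 and 4.2 TPM in SISC and 8.21 and 10.9 TPM in LISC (edgeR adjusted p = 0.0636). Mboat4, which acylates ghrelin, had 5, 1, 0 and 3 counts in SISC and LISC replicates 1 and 2. The list had a median difference of 0.01 on the log2 scale (−0.02 with RLE factors), 0.02 within replicate 1 and 0.54 within replicate 2.

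Receptors of the 10 hormones were mostly unread. Of 24 receptor genes, 13 had 0 counts in all 4 libraries: Sctr, Glp2r, Npy4r, Npy5r, Cckar, Cckbr, Ntsr1, Ntsr2, Ghsr, Sstr4, Tacr1, Tacr2 and Tacr3. A count of 0 allows up to 3 counts, or 0.110 to 0.234 CPM of all counts in these libraries. Glp1r, Gcgr, Sstr1, Sstr3, Sstr5 and Rxfp4 had at most 5 counts in any library. Of the 5 tested, edgeR called 0, with 2 at an unadjusted p below 0.05 (13.4% of all genes tested). DESeq2, which fitted 11, called 2 higher in LISC, against 4.94% of all genes with an adjusted p. The tested receptors had a median difference of 0.74 on the log2 scale, 2.52 within replicate 1 and 0.40 within replicate 2.

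The peptide YY receptor gene Npy1r had 0 counts in SISC and 14 and 37 counts in LISC (edgeR adjusted p = 0.104). The somatostatin receptor gene Sstr2 had 0 and 5 counts in SISC and 35 and 94 in LISC (edgeR adjusted p = 0.121). Npy2r, the other tested receptor of peptide YY, had 13 and 55 counts in SISC and 24 and 66 in LISC. In CPM these were 0.946 and 1.72 against 2.22 and 2.27. The groups did not overlap in CPM for Npy1r, Sstr2 and Npy2r, 3 of the 5 tested receptors, against 40.3% of all genes tested. Npy1r and Sstr2 passed the count filter only through LISC. Gipr, the receptor of the Gip product, had 2 and 31 counts in SISC and 9 and 17 in LISC. Sort1, a sorting receptor that also binds neurotensin and is used by most cells, was the most abundant at 26.1 to 46.4 TPM (log2 difference 0.14 ± 0.30 SE, edgeR adjusted p = 0.986).

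Sensors of nutrients and microbial metabolites, through which hormone cells read the gut content, had 10 tested of 27 genes and 0 calls by edgeR, with 7 of the 10 at an unadjusted p below 0.05, against 13.4% of all genes tested. DESeq2, which fitted 26 of them, called 5 higher in LISC, against 4.94% of all genes with an adjusted p. The median sensor gene differed by 1.58 on the log2 scale, 1.43 within replicate 1 and 1.65 within replicate 2. The fatty acid receptor gene Ffar4 came closest to the threshold, at 1.73 and 3.04 TPM in SISC and 6.51 and 16.5 TPM in LISC (log2 2.24 ± 0.33 SE, edgeR adjusted p = 0.0505). Ffar2, a receptor of short-chain fatty acids, was at 0.88 and 0.32 TPM in SISC and 5.70 and 18.0 TPM in LISC (edgeR adjusted p = 0.0813). The glucose carrier gene Slc5a1 and the orphan receptor gene Gpr35, the most abundant of the list, had log2 differences of −0.01 ± 0.30 and 0.65 ± 0.23 (SE, edgeR adjusted p = 1 and 0.322). Trpm5 of this list is also a tuft marker, and Gnat3 is known from tuft cells.

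Other gut peptide and amine genes gave 0 calls among the 7 tested of 26, with 1 of the 7 at an unadjusted p below 0.05 by edgeR, against 13.4% of all genes tested. Of 19 that DESeq2 fitted, 1 was called higher in LISC, against 4.94% of all genes with an adjusted p. The median gene of the list differed by −0.34 on the log2 scale, −0.71 within replicate 1 and 0.62 within replicate 2. Guca2a and Guca2b, which encode guanylin and uroguanylin, were the most abundant. Guca2a was at 184 and 43.9 TPM in SISC and 137 and 725 TPM in LISC (log2 1.79 ± 0.92 SE, edgeR adjusted p = 0.562), and Guca2b at 55.8, 28.0, 15.4 and 46.8 TPM in the same order. Tph1, the enzyme gene of gut serotonin, was at 1.39 and 0.62 TPM in SISC and 0.82 and 1.06 TPM in LISC. Vip, Npy, Crh and Trh were at 0 in all libraries.

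The genes whose pattern over the 4 libraries was most like that of the 3 most abundant hormones were found by the root mean square distance of log2(TPM + 1), centred on each gene's mean, over 8708 genes with a mean of at least 5 TPM. For Sct these were Lgals3, which encodes galectin-3, at a distance of 0.12, Hoxa11os at 0.22 and Akr1b8 at 0.26. For Gcg they were Lrrc26 at 0.39, Pyy at 0.41 and Guca2a at 0.47. For Gip they were Gm15293 at 0.20, and Myrf and Zfpm1 at 0.21. With 4 libraries many genes share a pattern, and these distances are a description only.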

How the data were processed

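Per the labels' protocols, poly(A) RNA went into a library kit that keeps strand. The submitters' processing notes list STAR 2.7.2b, RSEM 1.2.31 and the builds GRCm38 and mm10; annotation release and strand setting are unstated in the labels. RSEM expected counts per gene were deposited, together with TPM scaled by effective length. Some of these counts are fractions, since RSEM divides shared reads (7.25% of genes lay over 0.001 off a whole number somewhere). For the 10 hormone genes the deposited spread of the count was 0 throughout, so no read of theirs was divided. GENCODE vM21 gave symbols for 55227 of 55487 identifiers.

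After rounding, counts went into edgeR 4.0.16 (R 4.3.3): quasi-likelihood test on group alone, with TMM factors and filterByExpr at a minimum count of 10. P-values were adjusted by Benjamini-Hochberg over all 14165 genes that remained, and called at 0.05. Each SE is the log2 difference divided by the root of its F statistic, an approximation. Alternatives used DESeq2 1.42.0, limma 3.58.1 and other filters and factors. Fits were also run on simulated counts with less spread between libraries than these data have, and no result given here rests on that run. Reads are not independent molecules, so intervals and floors describe counting error alone. The members and lists were chosen with earlier results of these data known. From each list the text names called genes with a mean of at least 1 TPM (at most 4), the 2 most abundant, and every hormone receptor; other genes were chosen after their values were seen. Upstream stretches are from RefSeq (GRCm38.p6).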

Additional observations from a re-analysis of the deposited data

How the results depend on the processing

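Gip was called under each of the 11 alternative fits and Sst and Tac1 under none, and no tested hormone gene changed direction. Over the whole table edgeR called 206 genes (LISC) and 105 (SISC), DESeq2 779 and 389, and edgeR without a count filter 942 and 465. Leaving out 1 library gave 166 to 338 and 79 to 149, the highest without SISC replicate 1. Hormone genes called were 3 and 3 without the filter, 2 and 3 with limma-trend on TPM, 1 and 2 with DESeq2, and 0 and 1 without rRNA and mitochondrial genes (Sct 4.60). Leaving out 1 library gave 0 to 3 and 1 to 2. Newly called were Pyy (2.90), Cck (−3.93), Ghrl (−3.21) and Insl5 (6.89) without the filter, Pyy (2.24), Cck (−2.43) and Ghrl (−2.11) with limma-trend, and Cck (−3.97) with DESeq2. Without 1 library the log2 difference ranged from 3.74 to 5.14 for Sct, 0.07 to 3.54 for Gcg, 1.80 to 6.73 for Pyy and −4.77 to −2.0 for Cck. In the 6 other gene lists edgeR called 0 (LISC) and 2 (SISC) of 73 genes tested, against 1.45% and 0.741% of all genes tested. DESeq2 called 14 and 3 of 131 fitted, no filter 16 and 4 of 131, limma-trend 3 and 3 of 49, and the stricter filter 1 and 2 of 65. For these fits the shares of all genes are those given beside the hormone calls above, and the number of list genes kept differs between fits. The cause of these shifts was not tested. Few counts limit the precision for Nts, Insl5 and most receptors; low depth and low expression cannot be told apart there.

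Libraries with the same replicate number share only that number in the labels, and their deviations from the group means correlated at 0.648 across genes. With a replicate block 1015 genes (7.17% of all genes tested) were called for LISC and 524 (3.7%) for SISC. Of them 1 and 2 were hormone genes, with Cck added (−3.38, edgeR adjusted p = 0.0255). In the other lists 16 and 4 of 73 genes tested were called.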
